A study of Bos taurus with 138 samples.

Results

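The mRNA carried by polysomes was compared, gene by gene, with the whole transcriptome of bovine 8-cell embryos. Of the 138 libraries of the series, 9 enter the comparison. They are the 8-cell libraries of sucrose gradient fractions F8, F9 and F10 from gradients A and B, and the 3 whole transcriptomes A, B and C. Adding up the counts of these 3 fractions for gradient A and again for gradient B made 2 polysome pools. Bos taurus oocytes from slaughterhouse ovaries were matured and fertilized in vitro with semen of 1 Holstein bull. The embryos were cultured to the 8-cell stage and graded as of the best quality, treated with cycloheximide to hold ribosomes on mRNA, and freed of the zona pellucida. A polysome pool came from the cleared lysate of many embryos and a transcriptome from a smaller pool of whole embryos of the same batches, so every library is a mixture of embryos and none stands for a single one.

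Ribosomes that translate the same mRNA one behind another form a polysome, which sediments further in sucrose than a single ribosome, the monosome. An mRNA that is actively translated is therefore found mainly in the heavy fractions, and a stored mRNA mainly in the light ones. Oocytes carry large stores of untranslated maternal mRNA. In cattle the 8-cell stage is the time of major embryonic genome activation, when maternal mRNA is removed and transcripts of the embryo take over. A polysome pool and a transcriptome are each scaled to their own total, so a gene's polysome to transcriptome ratio is a share set against a share, not an amount of translated RNA.

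The pools held 22543733 and 34662212 counts and the transcriptomes 9524882 to 10445256. Despite the higher depth, 10533 and 12584 genes had a count in the pools and 13945 to 14332 in the transcriptomes. Pearson's r of log2(CPM + 1) across 12389 genes, which are not independent replicates, was 0.795 between the pools, 0.944 to 0.979 between transcriptomes and 0.447 to 0.537 between a pool and a transcriptome. CPM are counts scaled to a common library total (TMM-adjusted by edgeR). Among 3929 genes with a mean of at least 50 CPM, the pools were more than 8-fold apart for 207 genes and transcriptomes B and C for 1 gene.

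Transcriptome A stood apart from B and C. It held 60 genes at 50 CPM or more and over 4-fold above both other transcriptomes, whereas transcriptome B held 1 such gene and C held 0. The keratan sulphate proteoglycan LUM was at 8719.9 CPM in transcriptome A against 1886 and 1202 CPM in B and C, and the matrix protein SPARC was at 4376 against 1015 and 957 CPM. The 15 fibroblast or mesenchyme markers summed to 17735 CPM in transcriptome A, 3505 in B and 3053 in C, to 1621 and 2128 CPM in the polysome pools, and to between 17.9 and 585 CPM in the transcriptomes of the other 5 stages. All 15 had a count in each of the 3 transcriptomes, and 12 and 13 had one in the pools. The 16 cumulus or granulosa markers summed to 642 CPM in transcriptome A, 273 and 290 CPM in B and C and 142 and 253 CPM in the pools. The 6 erythroid markers were at 315 and 476 CPM in the pools and 75.5 to 103 CPM in the transcriptomes, the 10 epithelial markers at 794 and 1024 CPM against 372 to 510 CPM, the 9 leukocyte markers at 20.8 and 59.2 CPM against 24.0 to 25.2 CPM, and the 8 sperm markers at 2.34 and 29.3 CPM against 24.9 to 27.9 CPM. Counts of calls are therefore given with and without transcriptome A, and a gene named here whose call was lost without it is said to have lost it. In a mixture of cells, fewer cells of a type and less RNA per cell cannot be told apart, and the part of these markers in the results was not tested beyond leaving out that library. The defining oocyte and embryo genes were present in all 5 libraries, and their 11 markers summed to 3728 and 3350 CPM in the pools and to 1252, 2133 and 2539 CPM in the transcriptomes.

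Of 12389 genes tested, 2871 were higher in polysomes (23.2% of those tested) and 2603 were lower (21.0%) by edgeR's quasi-likelihood test at an adjusted p of 0.05. The fold change was above 8 for 1873 of the higher and 1529 of the lower genes. The higher genes had a median level of 84.3 CPM in the pools and 6.82 CPM in the transcriptomes, and the lower genes 5.53 and 58.6 CPM. In monosomes (F3 to F5) and free RNA (F1 and F2) the medians were 97.4 and 73.3 CPM for the higher genes. For the lower genes they were 4.25 and 5.97 CPM. As classes, these genes thus differed from the transcriptomes in the light fractions too. Against monosomes, 171 of the higher genes were called higher in polysomes and 276 lower, and of the lower genes 418 and 140. Without transcriptome A, 2155 genes were higher in polysomes than in the transcriptome (17.2% of 12506) and 1922 lower (15.4%). The counts of each list below are to be read beside these shares of all genes, with and without transcriptome A. Of the genes called on all 5 libraries, 2091 higher and 1838 lower genes were called again without it. The other libraries weighed as much or more. Without transcriptome B 1790 genes were higher and 1618 lower, without C 1679 and 1501, and with 1 pool only, whose spread is then taken from the transcriptomes, 4201 and 4438 without pool A and 3695 and 5607 without pool B. All 2871 higher genes kept their direction without transcriptome A, as did 2528 of the 2603 lower genes, and the other 75 no longer passed the filter on low counts. In all called genes both pools lay on the same side of all 3 transcriptomes. Leaving out transcriptome A could therefore hardly reverse a direction, and the kept directions are no separate support. Whatever the test gave, both pools lay above all 3 transcriptomes for 31.5% of the tested genes and below them for 39.6%. The median log2 fold change of all genes was -0.168. With RLE factors in place of TMM it was -0.472, a shift of -0.304, and 2585 genes were then higher and 2966 lower, so which of the counts was the larger depended on the scaling. Per the study's methods the gradients are repeated experiments, while the sources used here do not say that the transcriptomes came from separate cultures. P-values measure the spread between these samples, which may in part be technical, and with 3 residual degrees of freedom that spread is poorly known. Standard errors (±) of log2 fold changes were derived from the test statistic and are approximate.

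**Figure D1:**
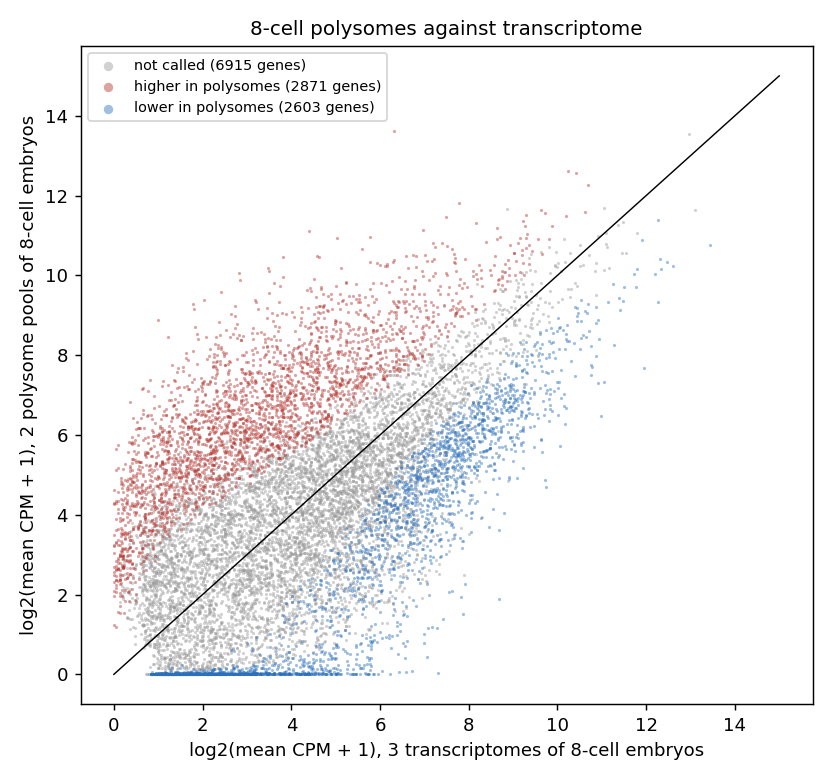
Each point is 1 of 12389 genes, with its mean level in the 3 whole transcriptomes of 8-cell embryos on the x axis and in the 2 polysome pools on the y axis, both as log2(mean CPM + 1). Red points are the 2871 genes called higher in polysomes, blue points the 2603 called lower, grey points those not called, and the line marks equal levels. The blue points along the bottom edge are genes with no or almost no count in the pools.

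The largest increases among genes with a mean of at least 50 CPM were of genes that were close to absent from the transcriptomes. KLHL25, a substrate adaptor of a cullin ubiquitin ligase, was at 369 and 572 CPM in the pools and 1.11, 0.300 and 1.55 CPM in the transcriptomes (log2 fold change 8.88 ± 0.71, adjusted p = 0.00124). SEZ6, a membrane protein known from neurons, was at 485 and 212 CPM in the pools and 1.47, 1.40 and 1.16 CPM in the transcriptomes (log2 fold change 8.01 ± 0.52, adjusted p = 0.001). For both genes the lowest pool was more than 100-fold above the highest transcriptome. The armadillo repeat gene ARMC7 was at 818 and 434 CPM in the pools and 2.21, 1.60 and 3.48 CPM in the transcriptomes (log2 fold change 8.00 ± 0.53, adjusted p = 0.001). HDAC7, a class II histone deacetylase, was at 611 and 526 CPM in the pools and 2.12, 2.10 and 3.29 CPM in the transcriptomes (log2 fold change 7.82 ± 0.37, adjusted p = 0.000965). PYGB, a glycogen phosphorylase, was at 214 and 119 CPM in the pools and 0.922, 0.50 and 0.870 CPM in the transcriptomes (log2 fold change 7.75 ± 0.57, adjusted p = 0.0011). TRMT61A, the catalytic subunit of a tRNA adenosine methyltransferase, was at 911 and 1227 CPM in the pools and 3.41, 9.40 and 5.32 CPM in the transcriptomes (log2 fold change 7.47 ± 0.54, adjusted p = 0.00104). The kinase PIM3 was at 776 and 745 CPM in the pools and 4.70, 2.5 and 5.80 CPM in the transcriptomes (log2 fold change 7.45 ± 0.45, adjusted p = 0.000965), and the homeobox factor UNCX at 409 and 424 CPM in the pools and 2.12, 2.00 and 3.48 CPM in the transcriptomes (log2 fold change 7.36 ± 0.40, adjusted p = 0.000965). The remaining 4 of the 12 genes were the pseudokinase PRAG1, C21H15orf39, LRRC14 and the glycosyltransferase MGAT5B, with log2 fold changes of 7.99 ± 0.60, 7.97 ± 0.80, 7.75 ± 0.41 and 7.57 ± 0.70. All 12 stayed called without transcriptome A, with adjusted p-values from 0.00938 to 0.0108.

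These genes were not confined to the heavy fractions. KLHL25 was at 1638 and 1809 CPM in the monosome pools (F3 to F5) and 638 and 434 CPM in the free RNA (F1 and F2) of gradients A and B. HDAC7 was at 1131 and 1945 CPM and PIM3 at 2273 and 2095 CPM in the monosome pools, all above the polysome pools. PYGB, at 175 and 237 CPM, and TRMT61A, at 933 and 477 CPM, overlapped with their polysome levels. Levels in monosomes and free RNA are on a scale shared by 9 libraries, on which the polysome levels given here would read 0.953 times as high in pool A and 0.866 times in pool B.

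The largest decrease among genes with a mean of at least 50 CPM was that of TARS1, which charges threonine onto its tRNA. It was at 0.0451 and 0 CPM in the pools and 219.7, 135 and 121 CPM in the transcriptomes, where the pools held 1 count against 4977 in the transcriptomes (log2 fold change -12.56 ± 1.0, adjusted p = 0.00124). From those counts the pools held 0.000115 times the transcriptome level, with an exact 95% counting interval of 2.91e-06 to 0.00064. The interferon-induced IFI44L was at 0.0902 and 0 CPM in the pools and 92.3, 84.9 and 108 CPM in the transcriptomes (log2 fold change -11.00 ± 1.16, adjusted p = 0.00207) and the centrosomal CEP70 at 0 and 0.0928 CPM in the pools and 67.2, 92.9 and 97.0 CPM in the transcriptomes (log2 fold change -10.50 ± 1.12, adjusted p = 0.00209), with 2 and 3 counts in the pools. Their counting intervals ran from 4.65e-05 to 0.00139 and from 0.000133 to 0.00188 times the transcriptome level. FAF2, which acts in protein removal from the endoplasmic reticulum, was at 0 and 0.124 CPM in the pools and 102, 108 and 105 CPM in the transcriptomes (log2 fold change -10.43 ± 1.10, adjusted p = 0.00207). The importin family member RANBP6 was at 0.225 and 0.464 CPM in the pools and 149, 144 and 106 CPM in the transcriptomes (log2 fold change -8.54 ± 0.64, adjusted p = 0.00114), the polarity scaffold DLG1 at 0 and 0.650 CPM in the pools and 116, 87.1 and 78.7 CPM in the transcriptomes (log2 fold change -8.09 ± 1.54, adjusted p = 0.00968) and the liprin PPFIBP1 at 0.766 and 0.650 CPM in the pools and 145, 54.3 and 74.7 CPM in the transcriptomes (log2 fold change -7.00 ± 0.76, adjusted p = 0.00216). In each of these genes every pool lay over 50-fold below every transcriptome.

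The other 5 of the 12 lower genes had no count in pool A and some in pool B. The guanine nucleotide exchange factor ARHGEF12 was at 0 and 0.836 CPM in the pools and 122, 78.6 and 51.4 CPM in the transcriptomes, the semaphorin SEMA6D at 0 and 1.42 CPM in the pools and 248, 53.1 and 79.6 CPM in the transcriptomes and the secreted matrix protein CCDC80 at 0 and 5.35 CPM in the pools and 734, 258 and 244 CPM in the transcriptomes. TRAPPC8, of a vesicle tethering complex, was at 0 and 1.27 CPM in the pools and 78.1, 109 and 91.7 CPM in the transcriptomes, and HLTF, a helicase-like factor of DNA damage tolerance, at 0 and 2.44 CPM in the pools and 257, 95 and 114 CPM in the transcriptomes. All transcriptomes were again far above both pools, and all 5 genes but TRAPPC8 were highest in transcriptome A. Adjusted p-values of these 5 genes, from 0.014 to 0.0259, rose to between 0.0593 and 0.0915 without transcriptome A, which ended each call. Leaving out transcriptome B ended it too in all 5, and leaving out C in all but ARHGEF12. The remaining 7 genes stayed called without each library in turn, and their adjusted p-values without transcriptome A ran from 0.00971 to 0.0419.

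**Figure D2:**
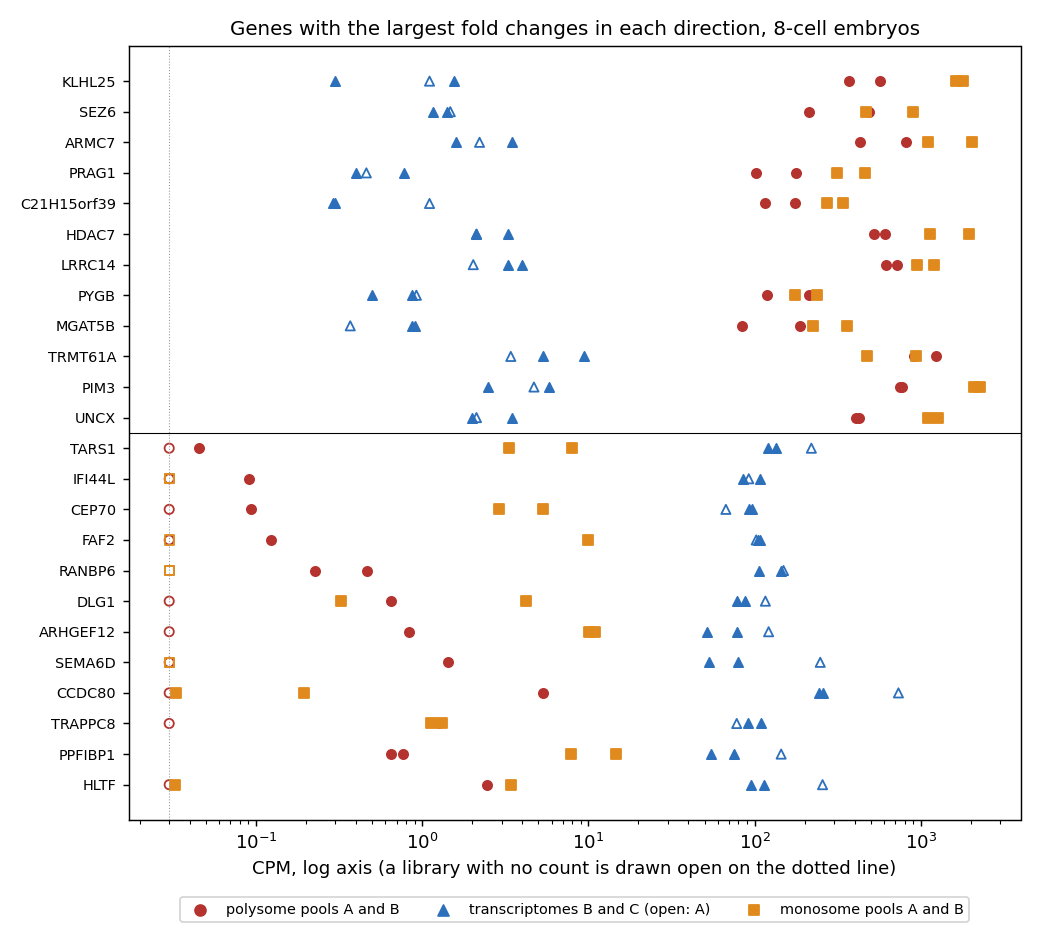
Levels of the 12 genes with the largest fold changes in each direction among called genes with a mean of at least 50 CPM over the 5 libraries, in CPM on a log axis, in every 8-cell library. Circles are polysome pools, triangles whole transcriptomes with A drawn open, and squares monosome pools. A pool with no count is drawn open on the dotted line. In the upper 12 genes both pools lie far to the right of the transcriptomes and near the monosome pools, and in the lower 12 far to the left.

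Some genes of the transcriptome had no count in polysomes at all. Of 7199 genes with a transcriptome mean of at least 10 CPM, 114 (1.58%) had 0 counts in both pools, and 28 of these had 0 counts in F1 to F7 as well. In the pools of at least 1 other stage, 105 of the 114 had a count. With the mean taken over transcriptomes B and C alone, 81 of 6987 genes (1.16%) had 0 counts in both pools. At 50 CPM or more, 8 of 3425 genes had none. They were COMMD10, OAS1X, UBR1, IPO8, MYOF, NEDD4, COG6 and CD36, which were chosen after their values were seen. All but COMMD10 passed 50 CPM only through transcriptome A, and over B and C alone COMMD10 was the 1 gene of 3344. COMMD10, of the endosomal Commander complex, was at 92.9, 67.3 and 61.0 CPM in transcriptomes A, B and C, and so at least 648-fold lower in the pools, taking 3 counts per library as the floor, and at least 564-fold lower without transcriptome A. The ubiquitin ligases UBR1 and NEDD4 were at least 501-fold and 459-fold lower, and at least 397-fold and 370.2-fold lower without transcriptome A. In the opposite direction, 7 of 7810 genes with a polysome mean of at least 10 CPM had no count in the 3 transcriptomes, and 19 had none in B and C. PADI3 was the highest of them and at least 81.7-fold higher in the pools.

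Ribosomal protein genes, whose mRNAs are known for translational control through a tract of pyrimidines at their start, were found in polysomes at about the share they took in the transcriptome. The 76 measured cytosolic ribosomal protein genes summed to 59288 and 66036 CPM in the pools and to 40415, 60992 and 46520 CPM in the transcriptomes, ranges that overlap. Of the 76 genes, 21 were higher and 15 lower, and without transcriptome A 16 were higher and 18 lower. Their median log2 fold change was 0.27, against -0.168 for all genes, and turned to -0.035 with RLE factors, where 14 were higher and 21 lower. Without transcriptome C the counts were 7 and 7. RPL8, of the large subunit, was at 2615 and 3752 CPM in the pools and 897, 746 and 721 CPM in the transcriptomes (log2 fold change 2.01 ± 0.29, adjusted p = 0.00431). RPS6, a target of S6 kinase signalling, was at 504 and 598 CPM in the pools and 1366, 1948 and 1384 CPM in the transcriptomes (log2 fold change -1.51 ± 0.30, adjusted p = 0.0108). RPS27A, which encodes a ubiquitin fusion, was at 523 and 533 CPM in the pools and 1145, 2130.0 and 1609.6 CPM in the transcriptomes (log2 fold change -1.62 ± 0.35, adjusted p = 0.0131). In each of these 3 genes the pools lay outside the transcriptomes, and each stayed called without transcriptome A (adjusted p = 0.0169, 0.0264 and 0.0172). RPS27A was not called without transcriptome C. Ribosomal protein genes and EEF1A1 have many processed copies in mammalian genomes, and how the counting divided reads among near-identical copies is not known.

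The factors that start and extend translation were more often lower, with 9 higher and 24 lower of 53 and a median log2 fold change of -1.04. EEF1A1, which brings aminoacyl-tRNA to the ribosome, was at 744 and 916 CPM in the pools and 3601, 2546 and 2586 CPM in the transcriptomes (log2 fold change -1.81 ± 0.31, adjusted p = 0.00764), and EIF5 at 576 and 671 CPM in the pools and 1422, 1880.1 and 1669.6 CPM in the transcriptomes (log2 fold change -1.41 ± 0.27, adjusted p = 0.0101). EIF6, which keeps the large ribosomal subunit apart until it is mature, was at 2900.1 and 3138 CPM in the pools and 702, 1087 and 723 CPM in the transcriptomes (log2 fold change 1.85 ± 0.30, adjusted p = 0.00637), so the list holds genes that moved both ways. Nucleolar genes of ribosome assembly had 12 higher and 20 lower of 65. NPM1 was at 39.3 and 64.4 CPM in the pools and 726, 1377 and 1076 CPM in the transcriptomes (log2 fold change -4.35 ± 0.46, adjusted p = 0.00208) and NCL at 48.9 and 211 CPM in the pools and 871, 1383 and 1155 CPM in the transcriptomes (log2 fold change -3.13 ± 0.69, adjusted p = 0.0144). The pools of NCL differed from each other more than its transcriptomes did, and both lay below every transcriptome. POLR1C, a subunit shared by RNA polymerases, was at 993 and 1139.5 CPM in the pools and 154, 205 and 179 CPM in the transcriptomes (log2 fold change 2.57 ± 0.25, adjusted p = 0.00178). Without transcriptome A, 7 translation factors were higher and 19 lower, and 8 nucleolar genes higher and 18 lower. EIF5 was not called without transcriptome C.

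The 13 protein-coding genes of the mitochondrial genome, which are translated inside mitochondria by their own ribosomes and not on cytosolic polysomes, summed to 16011 and 12638 CPM in the pools and to 42338, 58730 and 51597 CPM in the transcriptomes. Of the 13, 8 were lower and 0 higher, and 6 were lower without transcriptome A, 4 without B and 2 without C. COX1, the catalytic subunit of cytochrome oxidase, was at 2391 and 1085 CPM in the pools and 11834, 11267 and 10174 CPM in the transcriptomes (log2 fold change -2.67 ± 0.46, adjusted p = 0.00737), and ND1 of complex I at 1122 and 983 CPM in the pools and 2786, 4077 and 3367 CPM in the transcriptomes (log2 fold change -1.70 ± 0.31, adjusted p = 0.0085). Both stayed called without transcriptome A (adjusted p = 0.0294 and 0.0178), whereas COX2 (0.0352 to 0.0902) and CYTB (0.0226 to 0.0508) did not. ND5 was not called. It was at 944 and 3926 CPM in the pools and 2061, 3125 and 2779 CPM in the transcriptomes, so its pool B lay above and its pool A below the transcriptomes.

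Nuclear genes of the respiratory chain took a similar share in both kinds of library. The 76 measured genes summed to 27373 and 28138 CPM in the pools and to 23568, 27336 and 22533 CPM in the transcriptomes, so that the lower pool lay just above the highest transcriptome, and 24 were higher and 21 lower. The order of these counts turned under 6 of the 16 alternatives that gave calls. COX6B1 and COX4I1, subunits of cytochrome oxidase, were at 1788 and 1525 CPM in the pools and 469.8, 846 and 553 CPM in the transcriptomes (log2 fold change 1.41 ± 0.33, adjusted p = 0.0167), and at 785 and 1183 CPM in the pools and 494, 416 and 374 CPM in the transcriptomes (log2 fold change 1.2 ± 0.29, adjusted p = 0.0185). Cytochrome c (CYCS) was at 185 and 245 CPM in the pools and 1250.0, 2334 and 1622 CPM in the transcriptomes (log2 fold change -3.01 ± 0.39, adjusted p = 0.00351). COX6B1 was not called without transcriptome C, nor COX4I1 without transcriptome B or C or pool B. Without transcriptome A, 21 genes were higher and 17 lower, and without C 11 and 13. The genes of mitochondrial ribosomes had 28 higher and 17 lower of 77, and 24 and 14 without transcriptome A. MRPL28 was at 1356 and 1529 CPM in the pools and 102, 115 and 116 CPM in the transcriptomes (log2 fold change 3.70 ± 0.24, adjusted p = 0.001) and MRPL37 at 1687 and 1664 CPM in the pools and 133, 168 and 148 CPM in the transcriptomes (log2 fold change 3.48 ± 0.25, adjusted p = 0.00104). MRPS10 was at 105 and 87.2 CPM in the pools and 467, 555 and 536 CPM in the transcriptomes (log2 fold change -2.43 ± 0.27, adjusted p = 0.0023).

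Among genes that fold or destroy proteins, more were lower than higher in polysomes. Of 45 chaperone genes 4 were higher and 23 lower, with a median log2 fold change of -1.40, and without transcriptome A 4 were higher and 17 lower. They summed to 10740 and 12977 CPM in the pools and to 28840, 24815 and 21847 CPM in the transcriptomes. NACA, which binds nascent chains at the ribosome exit, was at 321 and 351 CPM in the pools and 1623, 2504 and 1733 CPM in the transcriptomes (log2 fold change -2.54 ± 0.33, adjusted p = 0.00331). The constitutive HSPA8 was at 736 and 1563 CPM in the pools and 4437, 3389.8 and 2833 CPM in the transcriptomes (log2 fold change -1.63 ± 0.44, adjusted p = 0.0269). Its call was lost without transcriptome A (adjusted p = 0.0757), without B or C and without pool A. The HSP40 gene DNAJB1 went the other way and was at 375 and 318 CPM in the pools and 72.8, 115 and 79.5 CPM in the transcriptomes (log2 fold change 1.96 ± 0.31, adjusted p = 0.00589).

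Of 36 proteasome genes 6 were higher and 17 lower, and 5 and 13 without transcriptome A. PSMA6, of the outer ring, was at 276 and 374 CPM in the pools and 1066, 1518 and 987 CPM in the transcriptomes (log2 fold change -1.87 ± 0.33, adjusted p = 0.0079), whereas PSMB5, which cuts after hydrophobic residues, was at 2889 and 2995 CPM in the pools and 651, 612 and 609 CPM in the transcriptomes (log2 fold change 2.24 ± 0.24, adjusted p = 0.00205). The genes of protein entry into the endoplasmic reticulum had 6 higher and 13 lower of 32, and 6 and 12 without transcriptome A. The translocon subunit SEC61A1 was at 712 and 1176 CPM in the pools and 96.1, 122 and 109 CPM in the transcriptomes (log2 fold change 3.12 ± 0.31, adjusted p = 0.00183), and OSTC, of the oligosaccharyltransferase, at 118 and 67.2 CPM in the pools and 512, 873 and 591 CPM in the transcriptomes (log2 fold change -2.83 ± 0.42, adjusted p = 0.00489). Lysosomal genes had 12 higher (22.6%) and 8 lower (15.1%) of 53, against 23.2% and 21.0% of all genes. Without transcriptome A they had 15 and 4 of 52. The protease CTSB was at 1366 and 942 CPM in the pools and 29.3, 32.3 and 40.2 CPM in the transcriptomes (log2 fold change 5.09 ± 0.32, adjusted p = 0.000972) and prosaposin (PSAP) at 453 and 691 CPM in the pools and 36.2, 25.5 and 26.1 CPM in the transcriptomes (log2 fold change 4.29 ± 0.34, adjusted p = 0.00124). Every pool was over 10-fold above every transcriptome in both genes. The membrane protein LAMP2 was at 149.9 and 104 CPM in the pools and 724, 373 and 329 CPM in the transcriptomes (log2 fold change -1.91 ± 0.45, adjusted p = 0.0184) and was not called with F9 and F10 alone.

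Maternal effect and oocyte genes, whose products are laid down before fertilization, had the largest share of genes higher in polysomes among the 22 pathway lists. Of 51 genes 23 were higher and 8 lower, with a median log2 fold change of 1.31, and 21 were higher and 6 lower without transcriptome A. They summed to 13951 and 10375 CPM in the pools and to 5050, 8205 and 8430 CPM in the transcriptomes, so each pool was above every transcriptome. MOS, the kinase that holds the egg in metaphase, was at 2299 and 1687 CPM in the pools and 31.3, 62.1 and 67.8 CPM in the transcriptomes (log2 fold change 5.21 ± 0.44, adjusted p = 0.00131). AURKC, the meiotic Aurora kinase, was at 1695 and 906 CPM in the pools and 168, 252 and 189 CPM in the transcriptomes (log2 fold change 2.68 ± 0.36, adjusted p = 0.00383). The oocyte growth factor BMP15 was at 1087 and 851 CPM in the pools and 189.5, 313 and 421 CPM in the transcriptomes, the zona pellucida gene ZP3 at 518 and 152 CPM in the pools and 11.4, 8.70 and 8.60 CPM in the transcriptomes, and NLRP5, of the subcortical maternal complex, at 109 and 147 CPM in the pools and 3.13, 4.0 and 2.42 CPM in the transcriptomes. In all 5 genes both pools were above the transcriptomes. BMP15, ZP3 and NLRP5 are among the 11 oocyte and embryo markers, of which 7 were called higher and 1 lower, or 6 and 1 without transcriptome A. The marker DPPA3 went the other way, at 138.7 and 136.2 CPM in the pools and 587.6, 1138.5 and 1165.5 CPM in the transcriptomes. GDF9 overlapped, at 140 and 94.3 CPM in the pools and 40.7, 32.6 and 133 CPM in the transcriptomes.

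The list of maternal effect and oocyte genes also held strong decreases. TUT7, which adds uridines to the tails of mRNAs, was at 146 and 209 CPM in the pools and 952, 1741 and 1360.2 CPM in the transcriptomes (log2 fold change -2.93 ± 0.39, adjusted p = 0.00372), and BTG4, which recruits the deadenylase that removes maternal mRNA, at 488 and 208 CPM in the pools and 1162, 1515 and 2087 CPM in the transcriptomes (log2 fold change -2.19 ± 0.49, adjusted p = 0.0152). BTG4 was not called without transcriptome C or in the model of all 30 libraries. Both TUT7 and BTG4 stayed called without transcriptome A (adjusted p = 0.0109 and 0.0349). Genes known for the first wave of embryonic transcription had 7 higher and 10 lower of 36, and 6 and 8 without transcriptome A. The heat shock gene HSPA1A, whose near-identical copies the counting may not separate, was at 386 and 958 CPM in the pools and 26.2, 48.5 and 54.9 CPM in the transcriptomes (log2 fold change 3.96 ± 0.52, adjusted p = 0.0036), and EIF1AX at 217 and 306 CPM in the pools and 676, 1116 and 877 CPM in the transcriptomes (log2 fold change -1.77 ± 0.34, adjusted p = 0.0101). The pluripotency factor NANOG was at 177 and 136 CPM in the pools and 135, 245 and 228 CPM in the transcriptomes and KLF17 at 431 and 703 CPM in the pools and 219, 312 and 452 CPM in the transcriptomes. The pools of NANOG lay within the range of the transcriptomes and those of KLF17 overlapped with it, and neither gene was called (adjusted p = 0.433 and 0.152).

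Genes of cell division were more often lower. Of 82 genes of anaphase, the kinetochore and the spindle, 13 were higher and 29 lower, and 12 and 21 without transcriptome A. The paralogues CKS1B and CKS2, small partners of cyclin-dependent kinases, went opposite ways. CKS1B was at 1235 and 987 CPM in the pools and 289.8, 527 and 467 CPM in the transcriptomes (log2 fold change 1.38 ± 0.33, adjusted p = 0.0184) and CKS2 at 1342 and 934 CPM in the pools and 2776, 7370.1 and 5300.4 CPM in the transcriptomes (log2 fold change -2.18 ± 0.51, adjusted p = 0.0169). Neither was called without transcriptome C, and both were without A (adjusted p = 0.0349 and 0.018). The checkpoint gene MAD2L1 was at 310.4 and 259 CPM in the pools and 886, 1571 and 974 CPM in the transcriptomes (log2 fold change -2.0 ± 0.36, adjusted p = 0.00838). Genes of DNA replication had 10 higher and 17 lower of 54, and 8 and 14 without transcriptome A. Among them the sliding clamp PCNA was at 172 and 223 CPM in the pools and 1026, 1299 and 940.1 CPM in the transcriptomes (log2 fold change -2.46 ± 0.30, adjusted p = 0.00296) and the topoisomerase TOP2A at 177 and 211 CPM in the pools and 641, 1254 and 935 CPM in the transcriptomes (log2 fold change -2.28 ± 0.37, adjusted p = 0.00656). The helicase subunit MCM7 was at 560.3 and 968 CPM in the pools and 64.3, 74.9 and 79.5 CPM in the transcriptomes (log2 fold change 3.39 ± 0.32, adjusted p = 0.00166), while MCM4 of the same complex was at 57.9 and 94.0 CPM in the pools and 55.4, 57.2 and 80.8 CPM in the transcriptomes and was not called (adjusted p = 0.671).

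Of 66 spliceosome genes 9 were higher and 25 lower, and 6 and 22 without transcriptome A. HNRNPA2B1, an RNA-binding protein of the nucleus, was at 112 and 202 CPM in the pools and 1795, 1996 and 1998 CPM in the transcriptomes (log2 fold change -3.62 ± 0.38, adjusted p = 0.00203), and the splicing factor SRSF3 at 465 and 452 CPM in the pools and 1530.0, 1527 and 1373 CPM in the transcriptomes (log2 fold change -1.69 ± 0.25, adjusted p = 0.00464). SF3B5 was higher, at 2471 and 2359 CPM in the pools and 448, 818 and 581 CPM in the transcriptomes (log2 fold change 1.97 ± 0.32, adjusted p = 0.00656). Writers and erasers of lysine methylation and acetylation had 9 higher and 12 lower of 67, counts below the 23.2% and 21.0% of all genes, and 7 and 8 without transcriptome A. The deacetylase SIRT1 was at 21.0 and 9.69 CPM in the pools and 232, 308 and 259 CPM in the transcriptomes (log2 fold change -4.12 ± 0.48, adjusted p = 0.00262) and the demethylase KDM5C at 208 and 304 CPM in the pools and 55.3, 31.4 and 44.2 CPM in the transcriptomes (log2 fold change 2.55 ± 0.37, adjusted p = 0.00463). Zinc finger genes of the ZNF series had 40 higher and 59 lower of 234, and 26 and 44 of 239 without transcriptome A. ZNF574 was at 1230.2 and 1653 CPM in the pools and 19.5, 25.4 and 23.6 CPM in the transcriptomes (log2 fold change 5.98 ± 0.31, adjusted p = 0.000965), and ZNF638 at 49.8 and 78.5 CPM in the pools and 401, 427 and 331 CPM in the transcriptomes (log2 fold change -2.59 ± 0.34, adjusted p = 0.00347).

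In glycolysis and the citrate cycle 10 genes were higher (25.6%) and 11 lower (28.2%) of 39, against 23.2% and 21.0% of all genes. Without transcriptome A there were 11 and 9 of 38. LDHA, which makes lactate, was at 145 and 172 CPM in the pools and 3744, 998 and 1651 CPM in the transcriptomes (log2 fold change -3.75 ± 0.67, adjusted p = 0.00818), and PGK1 at 314 and 342 CPM in the pools and 1883, 866 and 947 CPM in the transcriptomes (log2 fold change -1.91 ± 0.43, adjusted p = 0.0155). ALDOA, the muscle-type aldolase, was at 1250.0 and 1419.7 CPM in the pools and 771, 295 and 345 CPM in the transcriptomes (log2 fold change 1.51 ± 0.46, adjusted p = 0.0402). Transcriptome A was the highest of the 3 in LDHA, PGK1 and ALDOA. Without it their log2 fold changes were -3.07, -1.47 and 2.06, and all 3 were called. The call of ALDOA was lost with RLE factors, without TMM factors, in DESeq2 and without transcriptome B or C. Genes of MAPK and mTOR signalling had 27 higher and 18 lower of 80, and 20 and 11 of 79 without transcriptome A. The MAP kinase phosphatase DUSP1 was at 983 and 1083 CPM in the pools and 183, 180.4 and 179.5 CPM in the transcriptomes (log2 fold change 2.51 ± 0.22, adjusted p = 0.00144), and RHEB, the activator of the mTOR kinase complex, at 101 and 83.3 CPM in the pools and 285, 355 and 313 CPM in the transcriptomes (log2 fold change -1.79 ± 0.28, adjusted p = 0.00545).

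Ion channels and neurotransmitter receptors had 31 higher (24.6%) and 25 lower (19.8%) of 126, near the 23.2% and 21.0% of all genes. Without transcriptome A they had 21 and 21 of 129. The potassium channel subunit KCNG2 was at 178 and 252 CPM in the pools and 1.01, 2.40 and 0.967 CPM in the transcriptomes (log2 fold change 7.2 ± 0.60, adjusted p = 0.00131). KCNIP4, a channel-interacting protein, had no count in either pool and was at 73.5, 32.2 and 21.9 CPM in the transcriptomes (adjusted p = 0.00383, and 0.0211 without transcriptome A). Genes of the extracellular matrix and its receptors had 11 higher (19.3%) and 12 lower (21.1%) of 57, also near the shares of all genes. Without transcriptome A they had 6 and 9 of 54. The collagens COL1A1, COL1A2 and COL3A1 are also among the mesenchyme markers, and the matrix list summed to 4197 CPM in transcriptome A against 1499 and 1540.4 CPM in B and C and 805 and 1193 CPM in the pools. ITGB1, the common integrin beta chain, was at 55.6 and 122 CPM in the pools and 1032, 400.1 and 458 CPM in the transcriptomes (log2 fold change -2.83 ± 0.61, adjusted p = 0.0137). It was still called without transcriptome A (-2.28, adjusted p = 0.033), whereas the integrin ITGA5, at 28.3 and 115 CPM in the pools and 15.1, 5.60 and 9.47 CPM in the transcriptomes (log2 fold change 2.83 ± 0.78, adjusted p = 0.0291), was not (adjusted p = 0.0613), nor without transcriptome B or C or pool B.

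A further 18 tested genes were taken from the text of the study, which names some for the 8-cell stage, some for a rise by the blastocyst stage and some (LRWD1, KAT2A, SUV39H1, TAB1, XAB2 and MCM4) for translation in oocytes. It chose most of them on these samples, so their direction is no independent evidence. In 8-cell embryos 7 were higher in polysomes and 1, TUT7, lower, with and without transcriptome A, and 5 of the 7 called on all libraries were among those named for oocytes. The ubiquitin-like ISG15 was at 504 and 404 CPM in the pools and 132, 139 and 161 CPM in the transcriptomes (log2 fold change 1.66 ± 0.25, adjusted p = 0.00529). The collagen chaperone SERPINH1 was at 257 and 799 CPM in the pools and 47.8, 9.60 and 15.4 CPM in the transcriptomes (log2 fold change 4.44 ± 0.85, adjusted p = 0.00978), the acetyltransferase KAT2A at 122 and 78.0 CPM in the pools and 3.78, 3.80 and 4.83 CPM in the transcriptomes (log2 fold change 4.59 ± 0.49, adjusted p = 0.00208) and the methyltransferase SUV39H1 at 130.1 and 61.4 CPM in the pools and 5.35, 5.80 and 3.0 CPM in the transcriptomes (log2 fold change 4.34 ± 0.60, adjusted p = 0.004). ISG15 was not called in the model of all 30 libraries. XAB2 lost its call without transcriptome A (adjusted p = 0.0121 to 0.052) and RAB17 gained one (0.0635 to 0.0349). PLAT and TAGLN, both highest in transcriptome A, had log2 fold changes of -0.15 and 0.13 that became 0.90 and 1.34 without it, and neither was called. MYC was at 25.8 and 46.2 CPM in the pools and 13.7, 20.1 and 17.5 CPM in the transcriptomes and was not called (adjusted p = 0.165).

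**Figure D3:**
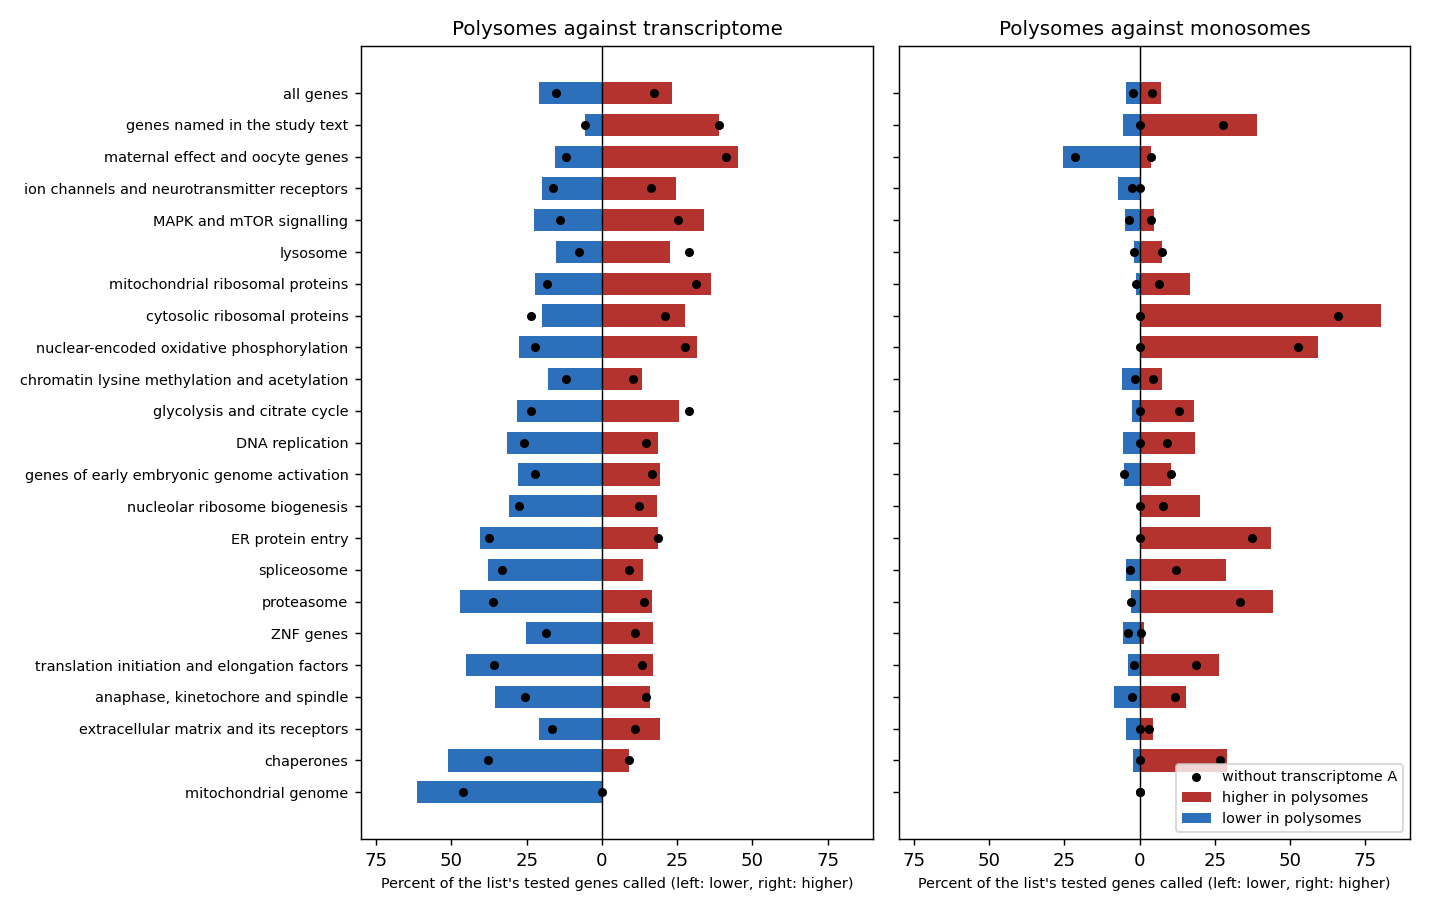
Percent of each list's tested genes called higher (right, red) or lower (left, blue) in 8-cell polysomes, against the whole transcriptome in the left panel and against monosomes in the right panel. Black points give the same percent without transcriptome A, and the top row gives all genes. Ribosomal proteins and nuclear respiratory chain genes were called in both directions on the left and in 1 direction on the right.

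The monosome pools (F3 to F5 of the same gradients) were set against the same transcriptomes and against the polysome pools in 1 fit of 7 libraries. Against the transcriptome, 3413 genes were higher in monosomes (24.8% of 13758) and 3304 lower (24.0%). Between polysomes and monosomes, 960 were higher in polysomes (6.98%) and 602 lower (4.38%). That split depends on the scaling, since without TMM factors it was 1215 and 458. Both pools of a gradient came from the same embryos. With the gradient as a term for the pools alone, 1353 genes were higher and 1006 lower. Transcriptome A enters this contrast through the spread, the filter on low counts and the scaling, but not as a level. Without it, 571 were higher and 280 lower. The counts were 424 and 176 without transcriptome B, 223 and 110 without C, and 2604 and 2206 without gradient A and 2495 and 3335 without gradient B.

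Among the 22 pathway lists, ribosomal proteins and the nuclear respiratory chain had the largest shares of genes called between polysomes and monosomes. Ribosomal protein genes summed to 23656 and 14995 CPM in the monosome pools, and 61 of 76 were higher in polysomes than in monosomes and 0 lower, with a median log2 fold change of 2.05. The counts were 61 and 0 with the gradient term, 50 and 0 without transcriptome A and 21 and 0 without C. RPS27A was at 101 and 83.7 CPM in the monosome pools (polysomes over monosomes 2.35 ± 0.36 on the log2 scale, adjusted p = 0.018), and RPL8 at 907 and 554 CPM (1.96 ± 0.34, adjusted p = 0.0214). Nuclear respiratory chain genes had 45 higher and 0 lower of 76 with a median of 1.92, 51 and 0 with the gradient term, 40 and 0 without transcriptome A, 29 and 0 without B and 17 and 0 without C. Their sum was 9131 and 7279 CPM in the monosome pools. NDUFA4 was at 561 and 609 CPM in the pools and 1028, 1847 and 1194 CPM in the transcriptomes and at 74.7 and 74.8 CPM in the monosome pools (2.79 ± 0.36, adjusted p = 0.0164). COX6B1 was at 338 and 211 CPM (2.43 ± 0.39, adjusted p = 0.019).

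Chaperones had 13 higher and 1 lower of 45, the proteasome 16 and 1 of 36, endoplasmic reticulum entry 14 and 0 of 32, translation factors 14 and 2 of 53, and the spliceosome 19 and 3 of 66. These counts fell with each transcriptome left out. Without A they were 12 and 0, 12 and 1, 12 and 0, 10 and 1, and 8 and 2 in the same order. Without B they were 9 and 0, 9 and 1, 9 and 0, 9 and 1, and 4 and 2, and without C 6 and 0, 7 and 0, 4 and 0, 5 and 1, and 3 and 2. The median log2 fold changes were 1.41, 1.18, 1.53, 1.17 and 0.68, and without transcriptome A 1.37, 1.14, 1.48, 1.15 and 0.63. The summed levels of these 5 lists in the pools were below every transcriptome, and above both monosome pools for all but the translation factors, whose monosome sums were 14076 and 10503 CPM against 13864 and 17458 CPM in polysomes. NACA was at 27.3 and 78.3 CPM in the monosome pools (2.47 ± 0.54, adjusted p = 0.0316, and 0.0605 without transcriptome A) and PSMB1 at 114 and 102 CPM (2.01 ± 0.29, adjusted p = 0.0164). The fibroblast or mesenchyme markers also differed along the gradient, with 1621 and 2128 CPM in polysomes and 135.5 and 99.0 CPM in monosomes, and 4 of 15 were higher and 1 lower in polysomes, or 4 and 0 without transcriptome A, 3 and 0 without B and 2 and 0 without C. Their part in the other differences between polysomes and monosomes was not tested.

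Maternal genes showed the opposite order. They summed to 37765 and 37610 CPM in the monosome pools, above each polysome pool and each transcriptome. Of 51 genes 2 were higher and 13 lower in polysomes than in monosomes, with a median of -1.64. The counts were 2 and 11 without transcriptome A, 2 and 7 without B and 0 and 9 without C. The median was -1.75 without gradient A and -1.36 without gradient B. AURKC was at 5561 and 3110.3 CPM in the monosome pools (polysomes over monosomes -1.89 ± 0.44, adjusted p = 0.0376), a call lost without transcriptome A (adjusted p = 0.0589). MOS was at 5472 and 4576 CPM (-1.50 ± 0.42) and was called only without transcriptome A (adjusted p = 0.0592 with it and 0.0393 without it). BMP15 was at 3280.4 and 4091 CPM and ZP3 at 576 and 495 CPM. CTSB (-2.02 ± 0.33, adjusted p = 0.019) and ZNF574 (-2.11 ± 0.31, adjusted p = 0.0164), both far higher in polysomes than in the transcriptome, were lower in polysomes than in monosomes, at 4542 and 3821 CPM and 5372 and 5614 CPM in the monosome pools.

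Along the single fractions, the sum of the maternal list fell from 42197 and 42715 CPM in F3 of gradients A and B to 10575 and 6183 CPM in F10, on a scale shared by the 23 libraries of the 8-cell stage. The respiratory chain list went from 8014 and 5795 CPM in F3 to 26568 and 25182 CPM in F8. Both gradients followed the same course in these lists. The mitochondrial genome was higher at both ends, with 38338 and 17315 CPM in F1, 7739 and 3239 CPM in F6 and 25797 and 16508 CPM in F10. Mesenchyme markers were at 202 and 107 CPM in F3 and 3095 and 2301 CPM in F10.

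**Figure D4:**
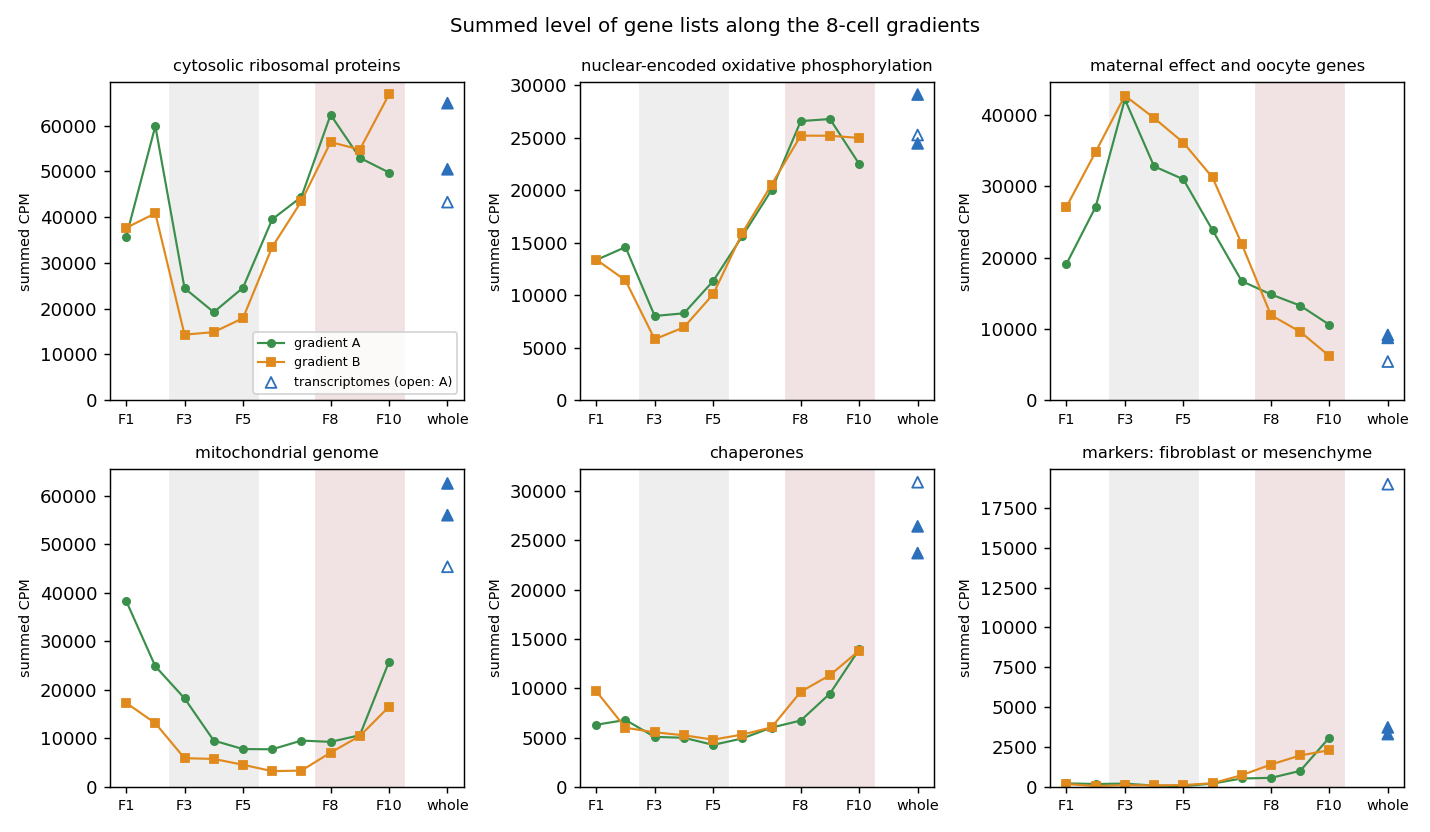
Summed CPM of 6 gene lists in each fraction (F1 to F10) of gradients A (circles) and B (squares) of 8-cell embryos, and in the 3 whole transcriptomes (triangles, A drawn open). Grey shading marks the monosome and red shading the polysome fractions. The maternal list fell from F3 to F10 in both gradients, while the respiratory chain list was lowest in F3 and highest in the polysome fractions.

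The 8-cell polysome to transcriptome ratio was then set against the mean ratio of the other 5 stages (germinal vesicle, GV, and metaphase II, MII, oocytes, 2-cell embryos, morulae and blastocysts, each with 2 polysome pools and 3 transcriptomes made the same way) as an interaction in a model of 30 libraries. The ratio was higher at the 8-cell stage for 932 of 14612 genes (6.38%) and lower for 1040 (7.12%). Without the 8-cell transcriptome A, 569 of 14570 were higher and 713 lower. Without transcriptome B 592 were higher and 933 lower, and without pool B 1389 and 2910.

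Maternal and oocyte genes had the highest share of higher ratios, 21 of 52, with 0 lower and a median difference of 1.65 on the log2 scale. Without the 8-cell transcriptome A there were 12 and 0, and without pool A 13 and 0. The median log2 ratio of this list was 1.02 at the 8-cell stage and 0.84 in morulae, so the 2 stages were close. It was -0.38 (GV), -0.24 (MII), -0.42 (2-cell) and -1.82 (blastocyst) at the others. The log2 ratio of MOS was 5.20 at the 8-cell stage, against 2.78 (GV), 2.47 (MII), 3.17 (2-cell), 4.41 (morula) and 1.08 (blastocyst) (8-cell minus the mean of the other stages 2.42 ± 0.66, adjusted p = 0.0154). That call was lost without the 8-cell transcriptome A (adjusted p = 0.0673). The ratio of AURKC was 2.66 at the 8-cell stage, against 0.63 (GV), 0.39 (MII), -0.37 (2-cell), 1.64 (morula) and 1.69 (blastocyst) (1.87 ± 0.40, adjusted p = 0.00311, and 0.0159 without transcriptome A). In AURKC the 8-cell value lay above those of all 5 other stages. CTSB differed by 1.54 ± 0.42 (adjusted p = 0.0167, and 0.0573 without transcriptome A), HDAC7 by 2.88 ± 0.43 (adjusted p = 0.000106 and 0.00101) and LIG1, a DNA ligase of replication, by 2.18 ± 0.32 (adjusted p = 8.60e-05 and 0.000743). The genes named here and in the next paragraph were chosen for their 8-cell call, which favours a difference in the same direction.

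Metabolic, lysosomal and extracellular matrix lists had the opposite sign. In glycolysis and the citrate cycle 12 of 39 genes had a lower ratio at the 8-cell stage and 0 a higher one, with a median of -1.12, and 8 and 0 without transcriptome A. LDHA had log2 ratios of -3.79 at the 8-cell stage, against -2.0 (GV), -1.44 (MII), -1.60 (2-cell), 0.17 (morula) and 0.04 (blastocyst) (-2.82 ± 0.45, adjusted p = 0.000211, and 0.000658 without transcriptome A). ALDOA had 1.47 at the 8-cell stage, against 4.35 (GV), 2.86 (MII), 3.68 (2-cell), 3.21 (morula) and 2.88 (blastocyst) (-1.93 ± 0.39, adjusted p = 0.00194, and 0.0114 without transcriptome A). In both genes the 8-cell ratio was the lowest of the 6 stages. PGK1 differed by -1.46 ± 0.38 (adjusted p = 0.0122) and was not called without transcriptome A (0.082). The nuclear respiratory chain had 12 lower and 0 higher of 76, and 6 and 0 without transcriptome A as well as without pool A. The median log2 ratio of the respiratory chain list was -0.04 at the 8-cell stage and lower, at -0.19, in GV oocytes. It was 1.55 (MII), 1.07 (2-cell), 0.79 (morula) and 1.23 (blastocyst) at the others. Lysosomal genes had 8 lower and 1 higher of 54, and 4 and 1 without transcriptome A. For the extracellular matrix the counts were 11 lower and 4 higher of 77, and 5 and 4 of 76 without transcriptome A. Without it the lower counts of both lists were closer to the share of all genes, 713 of 14570. The median log2 ratio of the matrix list was -1.40 at the 8-cell stage and lower, at -1.70, in blastocysts, against -0.45 to 1.44 at the other stages. Ribosomal protein genes, with 1 lower and 0 higher of 76, were below the background share in both directions, and the 1 gene was RPS6 (-1.14 ± 0.29, adjusted p = 0.00962). TARS1, at log2 ratios of -12.58 at the 8-cell stage, against -1.23 (GV), -2.73 (MII), -2.87 (2-cell), -0.47 (morula) and -2.48 (blastocyst), had a difference of -10.63 ± 0.78 (adjusted p = 5.24e-09), and its fitted 8-cell value depends on the prior count since the pools held 1 count.

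**Figure D5:**
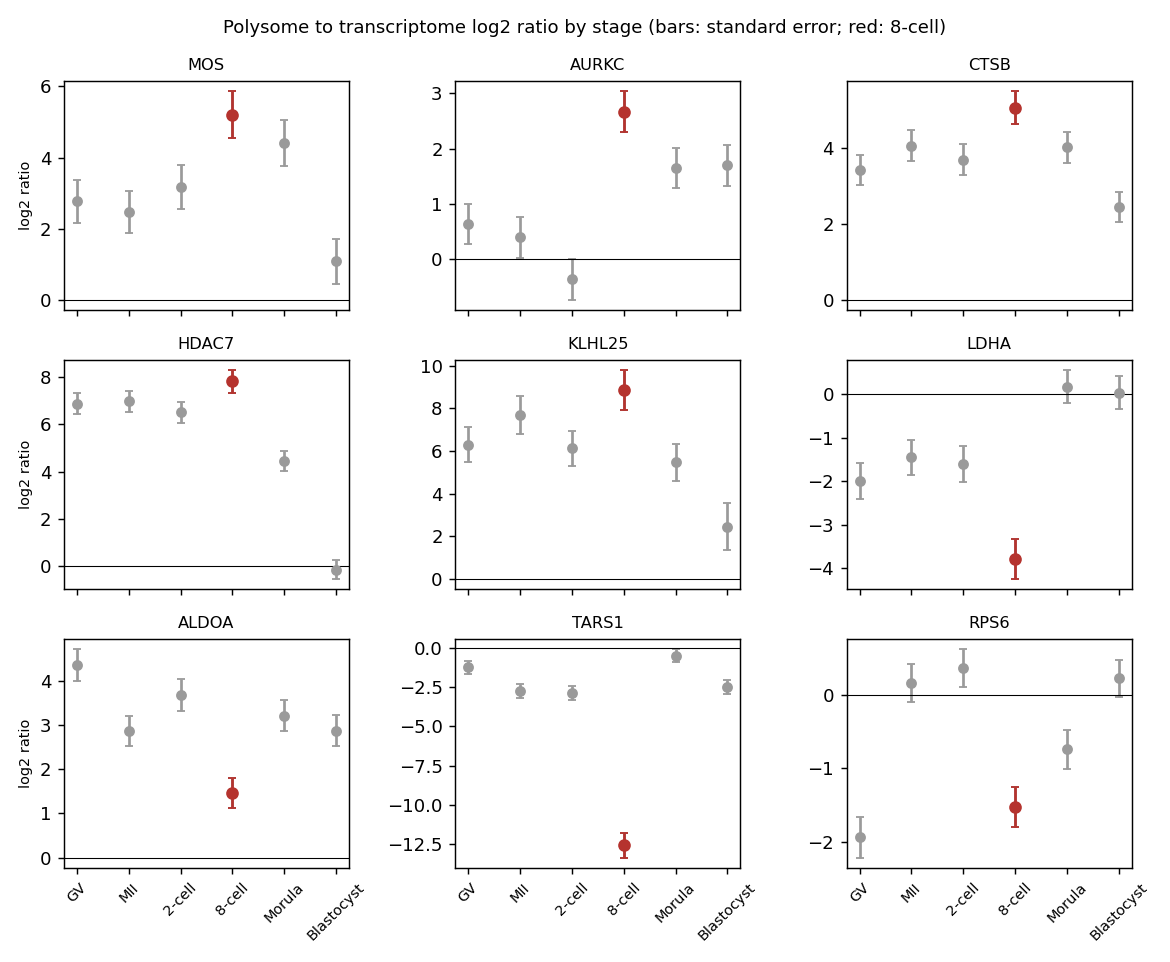
Log2 ratio of polysomes to whole transcriptome at each of the 6 stages for 9 named genes, with its standard error, from the model of 30 libraries, and with the 8-cell stage in red. The y axes differ between panels, and the black line marks a ratio of 1. All 9 genes were named for a call in the 8-cell comparison, which favours an extreme 8-cell value. The 8-cell value is the highest of the 6 stages in the panels of MOS, AURKC, CTSB, HDAC7 and KLHL25, and the lowest in those of LDHA, ALDOA and TARS1.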

How the data were processed

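Each library was RNA sequencing of a gradient fraction or of whole embryos, amplified as full-length cDNA. The deposited table holds expected counts that the authors estimated with Salmon (version not given in the sources used here) for 16706 gene symbols in 138 libraries, not normalized, of which 11.7% of values in the table are not whole. Per the labels the genome build was UMD3.1, whereas the methods of the study name a later bovine assembly, so no coordinates are given. The number of embryos per gradient also differs between the sources.

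Counts of F8 to F10 (polysomes) and F3 to F5 (monosomes) were summed within each gradient, rounded, filtered with filterByExpr, scaled with TMM factors and tested with edgeR 4.0.16 (quasi-likelihood F-test, Benjamini-Hochberg adjusted p below 0.05) in R 4.3.3 with limma 3.58.1. The polysome comparison used 5 libraries, the one with monosomes 7, and the one across stages 30. Samples were grouped by the stage, fraction and letter in their labels. The models of 5 and of 30 libraries were tested on simulated data in which 200 genes had known fold changes. The model of 7 libraries was not. The simulated spread (dispersion) was below the fitted values of 0.59 for 5 libraries and 0.31 for 30. The simulations therefore do not show how the models perform at the spread of these data. Alternatives covered the test (DESeq2 1.42.0), scaling, filters, fractions and each library left out. Tables and figures were made with Python 3.11.15, numpy 2.4.6, pandas 2.3.3, scipy 1.17.1 and matplotlib 3.10.9.

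Named genes were, for each direction, the 12 most changed among called genes of a mean of at least 50 CPM whose pools lay beyond all 3 transcriptomes, the 2 of highest mean CPM in each direction in each of 22 pathway lists, 18 genes taken from the text of the study and those of the mitochondrial genome. BMP15, ZP3 and NLRP5 are from the marker lists. The genes, the lists and the comparison itself were chosen with earlier results of these data known. Counting intervals and floors cover counting error only, since the libraries carry no molecular identifiers. Polysome and monosome pools of a gradient came from the same embryos.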

Additional observations from a re-analysis of the deposited data

Results flagged for a closer look

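The polysome to transcriptome ratio at the 8-cell stage differed from the mean of the other 5 stages, by the interaction test in the model of 30 libraries, for 932 genes with a higher and 1040 genes with a lower ratio. Among the named genes the ratio was higher, on the log2 scale, by 3.25 for KLHL25, 3.79 for SEZ6, 2.01 for ARMC7, 2.47 for PRAG1 and 1.92 for C21H15orf39. It was higher by 2.88 for HDAC7, 2.99 for LRRC14, 3.45 for PYGB, 1.61 for TRMT61A and 1.92 for PIM3. Among genes of the lists it was higher by 1.54 for CTSB, 2.42 for MOS, 1.87 for AURKC, 1.23 for CKS1B, 2.18 for LIG1, 1.31 for ZNF574, 1.95 for KAT2A and 1.37 for TAB1. Apart from those taken from the text of the study, these genes and those below were named for their 8-cell polysome to transcriptome call. That choice reuses the same 8-cell libraries and favours a difference from the other stages in the same direction, so such a difference is no independent evidence.

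The difference was -10.63 for TARS1, -7.30 for CEP70, -6.34 for FAF2, -4.44 for RANBP6, -5.33 for DLG1, -6.06 for ARHGEF12, -3.84 for TRAPPC8 and -5.07 for PPFIBP1, in genes whose 8-cell pools held few counts, so that these fitted values depend on the prior count. It was -1.14 for RPS6, -1.02 for PSMB1, -1.93 for ALDOA, -2.82 for LDHA and -1.46 for PGK1. Without the 8-cell transcriptome A, PRAG1, LRRC14, TRMT61A, CTSB, MOS, CKS1B, TAB1 and PGK1 were no longer called, and the other named genes were.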

How the results depend on the processing

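With 2 pools and 3 transcriptomes the counts of calls moved with every library left out. Over the 130 named genes and 16 alternatives other than the replicate block, 1938 of 2080 values kept their direction and their side of the threshold, 100 lost the call, 23 gained it and 19 changed sign. The sign changed only in genes that were not called. In all called genes both pools lay beyond all 3 transcriptomes, so leaving out 1 library could hardly turn their sign. The kept directions of called genes are therefore no separate support when 1 library is left out. With the letter of the library as a replicate block, 0 genes were higher and 0 lower in polysomes than in the transcriptome (1901 and 1604 at an unadjusted p below 0.05), 2002 higher and 1704 lower in monosomes than in the transcriptome, 0 and 0 in polysomes than in monosomes (1530 and 1021 at an unadjusted p below 0.05), and 43 and 88 in the interaction. The letters are not stated to pair libraries, and deviations correlated at -0.0714 for letter A and -0.0501 for letter B. A gradient term for the pools alone, chosen after seeing the data, gave 1353 and 1006 for polysomes against monosomes. DESeq2 gave 3966 and the model of all 30 libraries 4535 genes lower in polysomes than in the transcriptome. With 1 library left out, 1679 to 4201 genes were higher and 1501 to 5607 lower in polysomes than in the transcriptome, 2460 to 4788 and 1881 to 5544 in monosomes than in the transcriptome, 223 to 2604 and 110 to 3335 in polysomes than in monosomes, and 569 to 1389 and 713 to 2910 in the interaction. The cause was not tested. Where 1 pool was left, it was assumed to vary like the transcriptomes.

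The log2 fold change of ORM1 (-0.09) became 0.0563 with a filter at 5 CPM, 1.23 with the replicate block, 0.25 with F9 and F10 alone, 1.60 without transcriptome A and 0.29 without pool A, with -0.74 to 1.60 over the libraries left out. The log2 fold change of PLAT (-0.15) became 0.31 with F9 and F10 alone, 0.90 without transcriptome A and 0.13 without pool A, with -0.63 to 0.90 over the libraries left out. The log2 fold change of TAGLN (0.13) became -0.19 in DESeq2 and with RLE factors, -0.0949 with the replicate block, -0.0746 with thinned libraries, -0.17 and -0.28 without transcriptome B and C, and -0.66 without pool B, against 1.34 without transcriptome A. The log2 fold change of MCM4 (0.24) became -0.0754 in DESeq2, -0.0757 with RLE factors and -0.19 without pool B, against 0.48 without pool A. The log2 fold change of ND5 (-0.12) became 0.0789 with F9 and F10 alone, 0.02 without transcriptome B and 0.50 without pool A, against -1.53 without pool B.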
